A study of Caenorhabditis elegans with 4 samples.

Results

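The binding regions described here are the 461 regions of the combined peak list of the ChIP labelled NHR-129 whose midpoints lie on chromosome IV from base 12000000 to below base 13500000, out of 11110 regions on all 6 chromosomes. They form 2 dense blocks with a sparse gap between them. The members were chosen by the number of combined regions per window, so their density is a description and was not tested. Positions follow WormBase WS220, the build named in the file headers.

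The lists come from chromatin immunoprecipitation and sequencing (ChIP-seq) of Caenorhabditis elegans hermaphrodites of strain OP339 at the L2 larval stage, grown at 20 °C. Every animal of the study, Input included, carried the mutation unc119(ed3) and the transgene wgIs339(nhr-129::TY1 EGFP FLAG;unc119), which was brought in by bombardment and not outcrossed. The labels report the fusion protein in seam cells, the pharynx and head neurons, whereas chromatin was taken from whole animals. The 4 samples were 2 ChIP samples, precipitated with antibodies against GFP, and 2 Input samples of total chromatin, and a peak list was analysed for each ChIP sample together with the combined list. Nothing in the labels tells if the replicates were separate cultures, so the spread between them may be technical, and no sample without the transgene was analysed.

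NHR-129 belongs to the nuclear hormone receptors, ligand-responsive transcription factors with a zinc-finger DNA-binding domain, a family that is greatly expanded in C. elegans. Chromosome IV is known in this species for large clusters of piRNA genes, which encode the small RNAs that guard the germline against foreign sequence. Whether the dense blocks meet any gene, piRNA gene or repeat was not analysed here, since no annotation or genome of WS220 was used. All 11110 names in the combined list carried GEI-11 and 0 carried NHR. The same held for all 7583 names of the replicate 1 list and all 7109 of the replicate 2 list. GEI-11 is another nuclear protein, also called SNPC-4, which is known to occupy piRNA gene clusters in C. elegans, so the factor behind these lists is given only as the labels name it.

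In windows of 50 kb, the left block began abruptly. The window from 11.9 to 11.95 Mb held 5 combined regions, and the next, from 11.95 to 12 Mb, held 18. A window counted as dense when it held at least 6 regions, which is 2 times the median of 3 in the 320 windows of IV outside the stretch. By that rule the left block ran without a break over 11 windows from 11.95 to 12.5 Mb, starting 0.05 Mb before the stretch. Its first region started at IV 11952460 and its last region ended at IV 12492784.

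Both replicate lists showed the same step at the left edge. Replicate 1 held 4 peaks in the window before it and 15 in the window after it, and replicate 2 held 4 and 17. The left limit of the stretch, at 12 Mb, fell inside the block. The last region outside was IV 11999003 to 11999999 (combined q-value 1.28e-26), and the first region inside was IV 12000999 to 12001396 (7.11e-12), each overlapped by both replicates.

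Within the left block, density peaked near both of its ends. The 10 windows from 12 Mb on held 26, 30, 33, 14, 16, 21, 19, 27, 30 and 14 combined regions in their order along the chromosome. The fullest, from 12.1 to 12.15 Mb, held 33 combined regions, with 18 peaks in replicate 1 and 23 in replicate 2. The window from 12.15 to 12.2 Mb held 14 combined regions, with 8 peaks in replicate 1 and 7 in replicate 2, and it contained the longest empty stretch of the block, 18.4 kb from IV 12173706 to 12192076. Support by both replicates was lower in the second rise than in the first. In the 3 windows from 12 Mb on, both replicates overlapped 14 of 26, 16 of 30 and 12 of 33 regions, and neither overlapped 5, 9 and 10. In the pair of windows from 12.35 Mb on, both overlapped 6 of 27 and 8 of 30, and neither overlapped 9 and 15. The windows from 12.25 to 12.35 Mb, just before that pair, had 5 of 21 and 6 of 19 overlapped by both. Low support was thus not particular to the second rise. The windows were picked after their counts were seen, and the differences were not tested.

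**Figure D1:**
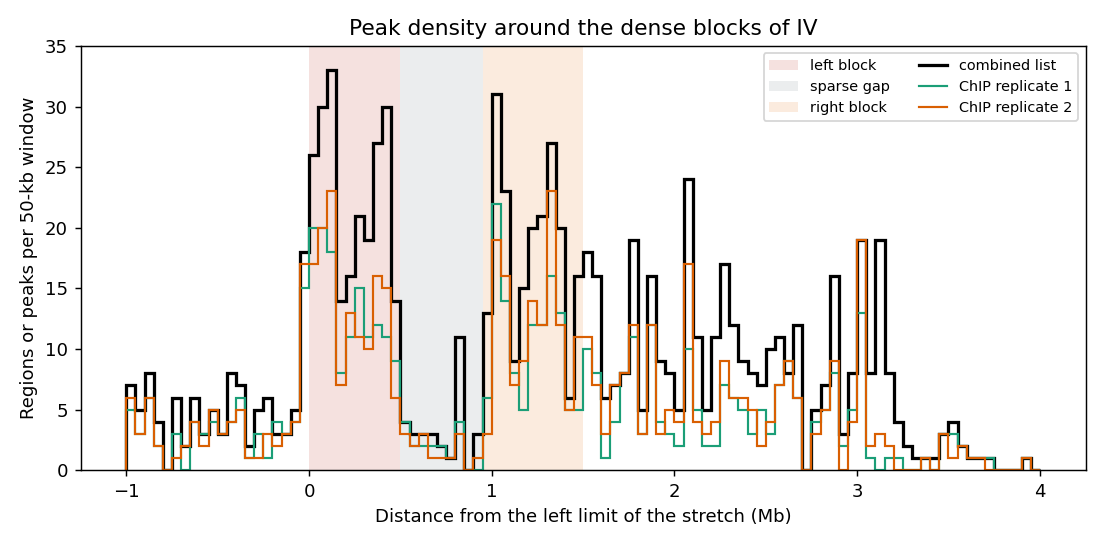
Combined regions (black) and peaks of ChIP replicates 1 and 2 (coloured lines) per 50-kb window of IV, against the distance in Mb from the left limit of the stretch, with the left block, the sparse gap and the right block shaded. All 3 lists step up just before the left limit, drop to a few regions per window in the gap and rise again in the right block, which then thins out to the right.

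The sparse gap lay between 12.5 and 12.95 Mb. Its 9 windows held 4, 3, 3, 3, 2, 1, 11, 0 and 3 combined regions. The left block thus ended within 1 window, with 14 regions in the last window of the block and 4 in the first window of the gap. Of the 9 windows, 1 was dense by the rule, that from 12.8 to 12.85 Mb. Its 11 regions had 4 peaks in replicate 1 and 3 in replicate 2, and 6 of the 11 were overlapped by neither list.

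Within the 461 members, the 3 longest distances without a combined region all lay in the gap, while the rest of IV had longer ones, up to 228723 bp. They were 81.1 kb from IV 12845960 to 12927084, 46.5 kb from IV 12653362 to 12699864 and 46.3 kb from IV 12725042 to 12771358. The first of these, which fills the window from 12.85 to 12.9 Mb, was also free of replicate peaks in that window.

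The right block began in steps. The 11 windows from 12.95 Mb to the right limit of the stretch held 13, 31, 23, 9, 15, 20, 21, 27, 20, 6 and 16 combined regions. In the first of these windows 2 of 13 regions were overlapped by both replicates and 7 by neither, with 6 peaks in replicate 1 and 3 in replicate 2. The next window, from 13 to 13.05 Mb, held 31 combined regions, 22 peaks of replicate 1 and 19 of replicate 2. The edge at which both replicates rose therefore lay nearer to 13 Mb, while the combined list placed the first region of the block at IV 12950710. From the replicate 1 list alone the block started at IV 12984531, and from the replicate 2 list alone at IV 13008364.

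The right end of the right block was not sharp. By the rule, with single windows below the limit bridged, the block ran over 35 windows to 14.7 Mb and so reached far past the stretch. With a limit of 3 times the median in place of 2 it ended at IV 13575157, and with 1.5 times at IV 15195686. At the right limit of the stretch the last region inside was IV 13496790 to 13496897 (combined q-value 0.000289, overlapped by neither replicate), and the first region outside was IV 13501025 to 13501177 (2.70e-06, overlapped by both).

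The parts of the stretch are described below as the left block from 12 to 12.5 Mb (230 regions), the sparse gap (30 regions) and the right block from 12.95 Mb on (201 regions). The combined list held 460 regions per Mb in the left block, 66.7 in the gap and 365 in the right block, against 81.1 per Mb in the rest of IV. The rest of IV comprised 1297 regions. Both dense blocks together thus had 5.06 times the density of the rest of IV, and the gap 0.822 times. The rest of IV includes the part that follows the stretch, up to 15.2 Mb, which was itself dense at 209 per Mb. Outside 11.95 to 15.2 Mb, IV held 64.8 regions per Mb, against which the gap had a ratio of 1.03.

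The replicate lists gave the same picture on their own, although the combined list may rest on the same reads, since its making is not described. Replicate 1 had 270 peaks per Mb in the left block, 37.8 in the gap and 215 in the right block, against 49.3 in the rest of IV. In replicate 2 the left block had 276 peaks per Mb, the gap 33.3 and the right block 238, against 47.9 in the rest of IV. The ratio of both blocks to the rest of IV was 4.89 in replicate 1 and 5.34 in replicate 2. Over the 30 windows of the stretch, the peak counts of the replicates had a Pearson correlation of 0.918 and a Spearman correlation of 0.939, a description over neighbouring windows of the same pair of samples. The median absolute difference between the replicates was 1 peak per window and the largest was 7, in the window from 13.3 to 13.35 Mb, with 16 peaks in replicate 1 and 23 in replicate 2.

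The blocks reached the counts of the fullest windows of chromosome V, where the median window held 11 regions against 3 or 4 on each of the others (IV without the blocks). The combined list had 225 regions per Mb on V, so the left block held 2.05 times and the right block 1.63 times that density. Of the 17 windows of any chromosome with at least 25 regions, 7 lay in the dense blocks and 10 on V. At least 30 regions were reached by 6 windows, 4 in the blocks and 2 on V. No window on I, II, III or X had 20 or more, and the fullest windows there held between 13 (III) and 17 (I).

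Regions in the blocks stood close together, as their density requires. The median distance from one region to the next was 795 bp in the left block, 8073 bp in the gap and 1147 bp in the right block, against 4233 bp in the rest of IV. Distances under 1000 bp made up 61.6% of all distances in the left block, 43.5% in the right block and 17.2% in the gap, against 22.9% in the rest of IV. The shortest distances were alike in all parts, at 200 bp in the left block, 202 bp in the right block, 203 bp in the gap and 200 bp in the rest of IV.

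The left block was built from longer chains of regions than the right block. Chain length depends on density, by which the members were chosen and which was higher in the left block. When regions less than 1000 bp apart were joined, the 230 regions of the left block formed 89 chains and the 201 of the right block formed 114. Chains of at least 4 regions held 58.7% of the regions of the left block and 28.4% of those of the right block, against 9.41% in the rest of IV. The gap had no such chain among its 30 regions, and 20 of them stood alone. Counted by chains, the left block had 178 per Mb and the right block 207, against 62.5 in the rest of IV, so the order of the blocks was the reverse of that by regions.

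The longest chains, picked after their lengths were seen, are examples and do not stand for the blocks as a whole. Single regions made up 43 of the 89 chains of the left block and 71 of the 114 of the right block. In the rest of IV they made up 815 of 1000 chains, and the longest chain there held 12 regions. In the left block, 11 regions stood in a row from IV 12357139 to 12367497 and covered 53.3% of that span, and 2 of the 11 were overlapped by both replicates. Another 10 regions stood from IV 12196564 to 12209611, covered 71.7% of the span and were overlapped by both replicates in 7 cases. A second chain of 10 regions, from IV 12329803 to 12339402, covered 45.4% of its span, and 3 of its regions were overlapped by both. The longest chain of the right block held 8 regions from IV 13023950 to 13033568, with 64.5% of the span covered and 5 regions overlapped by both replicates.

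**Figure D2:**
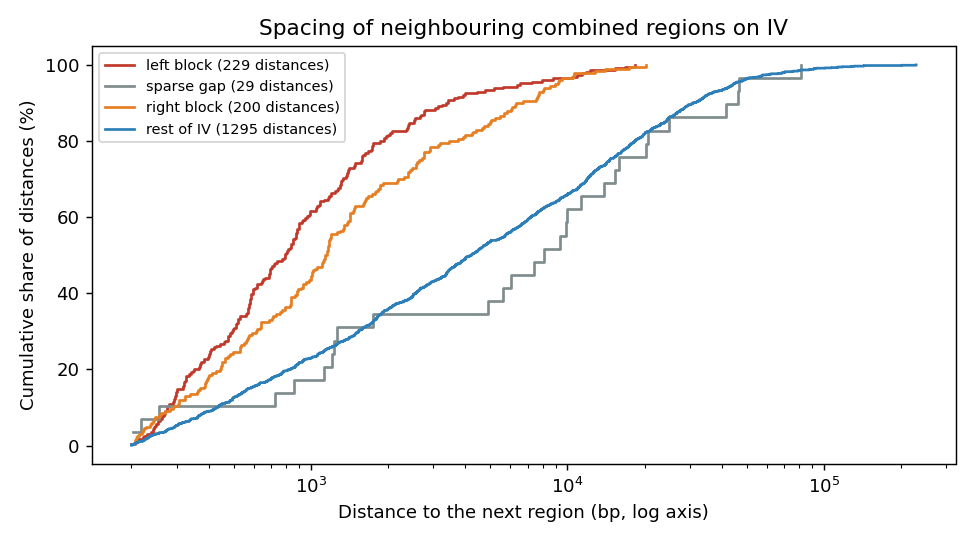
Cumulative share (%) of the distances in bp (log axis) between neighbouring combined regions in the left block, the sparse gap, the right block and the rest of IV. The curves of the left and right blocks lie far to the left, at medians of 795 and 1147 bp, while the gap has a median of 8073 bp, against 4233 bp in the rest of IV.

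In 10-kb windows the blocks were nearly without empty places. The density by which the members were chosen also sets such counts. Of the 105 such windows of both blocks, 5 held no combined region (4.76%), against 869 of 1600 in the rest of IV (54.3%). In the gap, 26 of 45 were empty (57.8%). The fullest 10-kb window, from 12.09 to 12.1 Mb, held 10 regions.

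Regions covered 23.0% of the bases of the left block, 2.65% of those of the gap and 12.9% of those of the right block, against 4.74% in the rest of IV and 6.43% on V. The left and right blocks differed more in covered bases than in numbers of regions, the regions of the right block being narrower. Median widths were 335.5 bp in the left block (interquartile range 174 to 598 bp), 361.5 bp in the gap (211 to 439 bp) and 234 bp in the right block (135 to 470 bp), against 422 bp in the rest of IV (284 to 662 bp). The median was 274 bp in the part of IV that follows the stretch and 197 bp on V.

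Narrow regions were common in both blocks. Over all chromosomes 14.1% of the combined regions were under 100 bp wide, and in the stretch 68 of 461 were (14.8%), so the share was near that background. The background is largely set by V, where 27.4% were under 100 bp, while in the rest of IV 6.63% were. Within the stretch, 12.2% of the regions of the left block and 17.4% of those of the right block were under 100 bp. The part of IV that follows the stretch had 13.8% under 100 bp and 23.4% of 500 bp or more. Regions of 500 bp or more made up 31.0% over all chromosomes, 32.6% of the left block and 21.4% of the right block, against 39.2% in the rest of IV. By these wider regions alone, both blocks had 3.54 times the density of the rest of IV.

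The right block was narrower than the left in each class of q-value. The q-value is the authors' measure of how unlikely a peak is under their control, and -log10 q grows with strength. Between -log10 q of 5 and 10, the median width was 335 bp in the left block and 226 bp in the right block, against 404 bp in the rest of IV and 119 bp on V. Between 10 and 20 it was 548 bp in the left block and 453 bp in the right block, against 531 bp in the rest of IV and 264 bp on V. Between 20 and 40 it was 774 bp in the left block and 612 bp in the right block, against 673 bp in the rest of IV. Between 40 and 100 the median was 946.5 bp in the left block and 784 bp in the right block, against 1154 bp in the rest of IV, and over 100 it was 2036 bp in the left block and 1811 bp in the right block, against 2674 bp. The left block thus had wider regions than the rest of IV between 10 and 40 and narrower ones below and above, while the right block had narrower ones in every class. The part of IV that follows the stretch had medians of 429 bp (10 to 20), 515 bp (20 to 40) and 677.5 bp (40 to 100), narrower than the right block. Between 5 and 10 it had 274 bp and over 100 it had 2398 bp, wider than the right block. Narrow regions were thus not a trait of the right block alone. These differences between groups of regions were not tested.

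**Figure D3:**
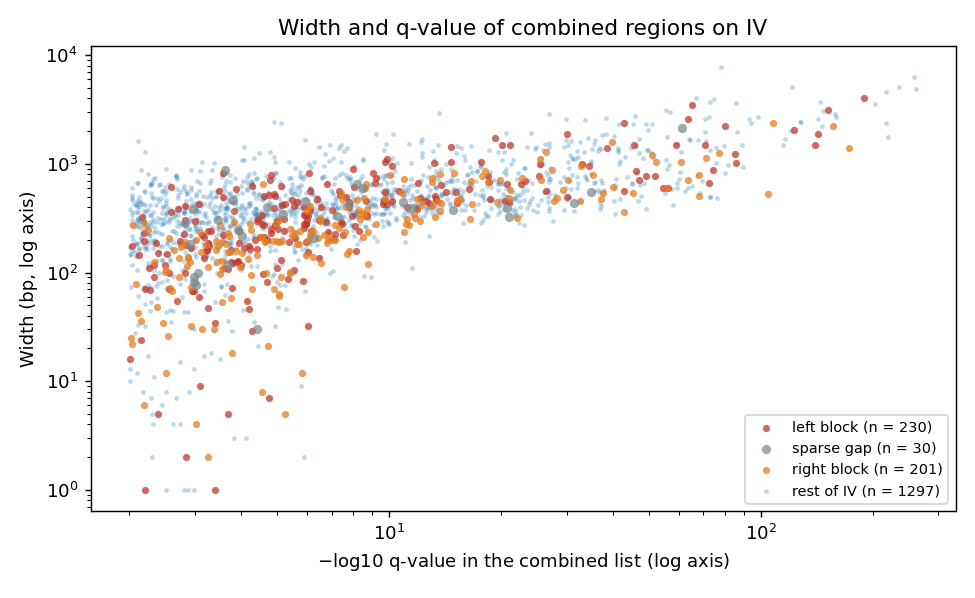
Width in bp of each combined region on IV against its -log10 q-value (both on log axes), for the left block, the sparse gap, the right block and the rest of IV. Weak regions of the right block lie mostly below those of the rest of IV, with medians of 226 and 404 bp between 5 and 10.

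The strength of the members differed little from that of the rest of IV in the middle of the distribution. The median -log10 q-value was 5.87 in the left block, 4.94 in the gap and 6.24 in the right block, against 5.94 in the rest of IV and 9.60 on V. Of all combined regions, 10.0% are by construction in its strongest 10%. In the left block 23 of 230 regions were in it (10.0%), in the gap 1 of 30 (3.33%) and in the right block 15 of 201 (7.46%), against 8.02% in the rest of IV. Because the blocks hold so many regions, strong ones were dense too, at 46 per Mb in the left block and 27.3 in the right block, against 6.5 in the rest of IV and 28.9 on V. The strongest values of IV lay elsewhere, since -log10 q reached 189 in the stretch and 262 in the rest of IV.

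The 5 best ranked members of the left block comprised 1 neighbouring pair and 3 regions apart from it. Ranks were taken in each replicate list, and each member took the strongest replicate peak that overlaps it. The region with the best mean rank was IV 12031474 to 12032953 (1480 bp), at rank 92 in replicate 1 (q-value 1.51e-104) and rank 90 in replicate 2 (4.01e-94). The next region along the chromosome was IV 12033273 to 12037275, at ranks 142 (8.33e-85) and 113 (1.44e-85). That neighbour was the widest member, at 4003 bp, and had the smallest combined q-value of the stretch, 4.79e-190, at rank 57 of 11110. Each replicate overlapped it with 1 peak of nearly its width, 3993 bp in replicate 1 and 3925 bp in replicate 2.

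The other 3 leading regions of the left block lay further to the right. IV 12333943 to 12335818 (1876 bp) ranked 211 in replicate 1 (q-value 8.81e-67) and 158 in replicate 2 (8.19e-72). IV 12198349 to 12201493 (3145 bp) ranked 171 (2.19e-77) and 216 (3.95e-61). IV 12416451 to 12418486 (2036 bp) ranked 246 (6.92e-60) and 214 (2.26e-61). Of the 5 leading regions of the left block, replicate 1 ranked 1 higher and replicate 2 ranked 4 higher.

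The right block held the best ranked member of the whole stretch, IV 13394371 to 13395772 (1402 bp), at rank 50 in replicate 1 (q-value 3.52e-132) and rank 21 in replicate 2 (2.77e-151). In replicate 2 it was part of 1 peak of 2647 bp that also spanned its neighbour IV 13393034 to 13394163 (1130 bp). That neighbour had its own peak in replicate 1, at rank 465 (2.16e-40), so its rank in replicate 2 was the rank of the joint peak. Such joint peaks were rare, since 1 peak of replicate 1 and 2 of replicate 2 overlapped more than 1 member.

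The second best of the right block was IV 13239066 to 13241285 (2220 bp), at ranks 72 (6.37e-114) in replicate 1 and 92 (1.12e-93) in replicate 2. IV 13080051 to 13080575 ranked 177 (2.42e-76) and 268 (1.49e-51), although it was 525 bp wide. IV 13029341 to 13031736, the widest region of the right block at 2396 bp, ranked 317 (6.28e-51) and 314 (1.67e-45). The leading regions of the blocks were thus 525 to 4003 bp wide, and width did not follow rank among them.

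The gap was not empty of well supported regions, but its best were weaker. IV 12525808 to 12527949 (2142 bp), the widest of the gap, ranked 714 in replicate 1 (q-value 2.13e-30) and 1070 in replicate 2 (1.30e-19), and each replicate list split it into 2 peaks. IV 12594470 to 12595014 (545 bp) ranked 1459 (2.42e-17) and 1127 (7.56e-19). IV 12724609 to 12725041 (433 bp) ranked 1238 (3.51e-20) and 1512 (1.27e-14). The next were IV 12621708 to 12622032, at ranks 2066 (1.40e-12) and 2118 (6.60e-11), and IV 12771359 to 12771747, at ranks 2535 (3.72e-10) and 2444 (2.03e-09). Of the 30 regions of the gap, 12 were overlapped by both replicates.

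Replicate support of the members lay below that over all chromosomes and did not differ beyond the intervals from that of the adjoining part of IV. Both replicate lists overlapped 48.5% of the combined regions over all chromosomes (interval 47.6 to 49.4%). In the stretch they overlapped 186 of 461, or 40.3% (95% Wilson interval 36.0 to 44.9%, counting error only), against 46.4% in the rest of IV (43.7 to 49.1%). The part of IV that follows the stretch, up to 15.2 Mb, had 35.8% (31.0 to 40.9%), with an interval that overlaps that of the stretch. Its last windows, from 15.05 to 15.2 Mb, had low support, with 1 of 8, 0 of 19 and 1 of 8 regions overlapped by both. That part reaches 15.2 Mb only by the limit of 1.5 times the median. Within the stretch the shares were 38.3% in the left block (32.2 to 44.7%), 40% in the gap (24.6 to 57.7%) and 42.8% in the right block (36.1 to 49.7%), which do not differ beyond these intervals. Regions overlapped by neither list made up 30.2% of the stretch (26.1 to 34.5%), against 32.5% in the rest of IV (30.04 to 35.1%) and 26.9% over all chromosomes.

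Regions found by replicate 2 alone took a larger share of the blocks than of the rest of IV as a whole. They were 38 of 230 in the left block (16.5%, interval 12.3 to 21.9%) and 32 of 201 in the right block (15.9%, 11.5 to 21.6%), against 121 of 1297 in the rest of IV (9.33%, 7.86 to 11.03%) and 9.75% over all chromosomes. The part of IV that follows the stretch had a like share, 58 of 355 (16.3%, 12.9 to 20.5%), so this was not a trait of the blocks alone. Regions found by replicate 1 alone made up 14.8% of the left block and 12.4% of the right block, against 11.7% in the rest of IV and 14.8% over all chromosomes. The stretch held 284 peaks of replicate 2 and 270 of replicate 1, while over all chromosomes replicate 1 had the longer list, with 7583 peaks against 7109 in replicate 2. In the rest of IV replicate 2 had 767 peaks and replicate 1 had 788. The depth of the libraries is unknown, and its part in these numbers was not tested.

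**Figure D4:**
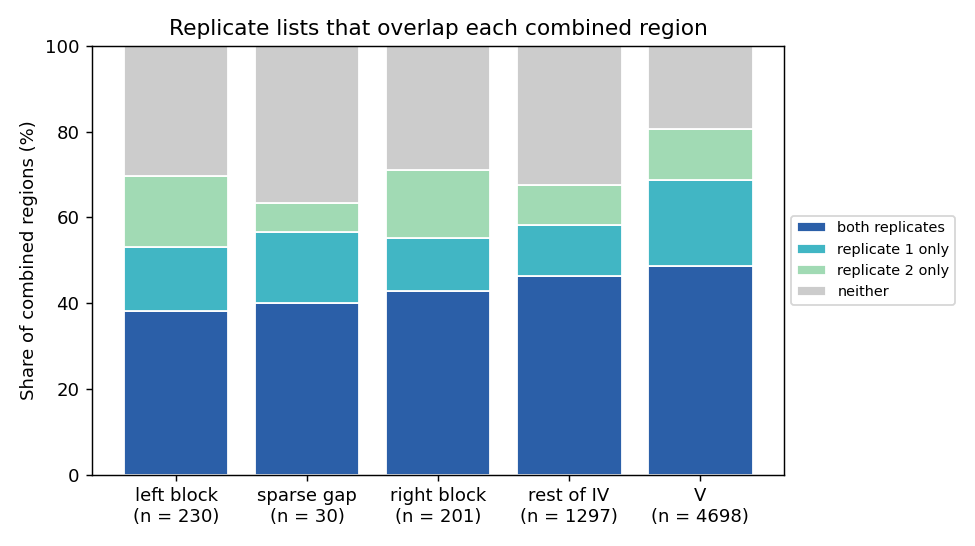
Share (%) of combined regions that meet peaks of both replicates, of replicate 1 only, of replicate 2 only or of neither, in the left block, the sparse gap, the right block, the rest of IV and V. The share found by replicate 2 only is 16.5% in the left block and 15.9% in the right block, against 9.33% in the rest of IV.

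Seen from the replicate lists, the share of peaks with a counterpart in the other list was smaller in the blocks than in the rest of IV. For replicate 1 it was not smaller than on V. Over all chromosomes 71.7% of the replicate 1 list and 77.6% of the replicate 2 list had one. In the left block 66.7% of 135 peaks of replicate 1 (interval 58.4 to 74.1%) and 64.5% of 138 of replicate 2 (56.2 to 72.0%) had one. In the right block the shares were 71.2% of 118 in replicate 1 (62.5 to 78.6%) and 64.1% of 131 in replicate 2 (55.6 to 71.8%). The rest of IV had 78.9% of 788 in replicate 1 (76.0 to 81.6%) and 81.9% of 767 in replicate 2 (79.0 to 84.4%). The intervals of either block lay below that of the rest of IV for replicate 2, and that of the left block did for replicate 1, but the differences were not tested. For replicate 1 the share was 62.1% on V (60.5 to 63.7%) and 76.6% in the part of IV that follows the stretch (69.8 to 82.2%). For replicate 2 it was 65.2% in the part of IV that follows the stretch (58.4 to 71.4%) and 69.5% on V (67.9 to 71.1%). The intervals of the part that follows the stretch overlapped those of both blocks in either replicate.

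Support followed strength, in the blocks as over all chromosomes. In the dense blocks, all 72 regions with -log10 q over 20 were overlapped by both replicates, as were 53 of 56 between 10 and 20 (94.6%, interval 85.4 to 98.2%). Between 3 and 5, 2 of 112 were, and between 2 and 3, 0 of 65, which allows a share of up to 5.6% at the upper Wilson limit. Over all chromosomes, 2469 of 2476 regions over 20 were overlapped by both, and 86.5% of those between 10 and 20. Between 3 and 5 the share over all chromosomes was 1.6%, and between 2 and 3 it was 0 of 1358. The blocks and the rest of IV parted between 5 and 10. There 47 of 126 regions of the dense blocks were overlapped by both (37.3%, 29.4 to 46.0%), against 58.0% of 286 in the rest of IV (52.3 to 63.6%) and 16.2% of 1699 on V (14.6 to 18.1%). The blocks thus stood between the rest of IV and V in this class, with intervals that did not overlap. Over all chromosomes the share in this class was 32.1% (30.5 to 33.7%). In the part of IV that follows the stretch it was 43.4% (33.2 to 54.1%). Both of these intervals overlapped that of the blocks. Between 10 and 20 the blocks and the rest of IV (95.8%, 92.0 to 97.9%) had like shares, while V had 75.4% (72.7 to 77.9%).

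**Figure D5:**
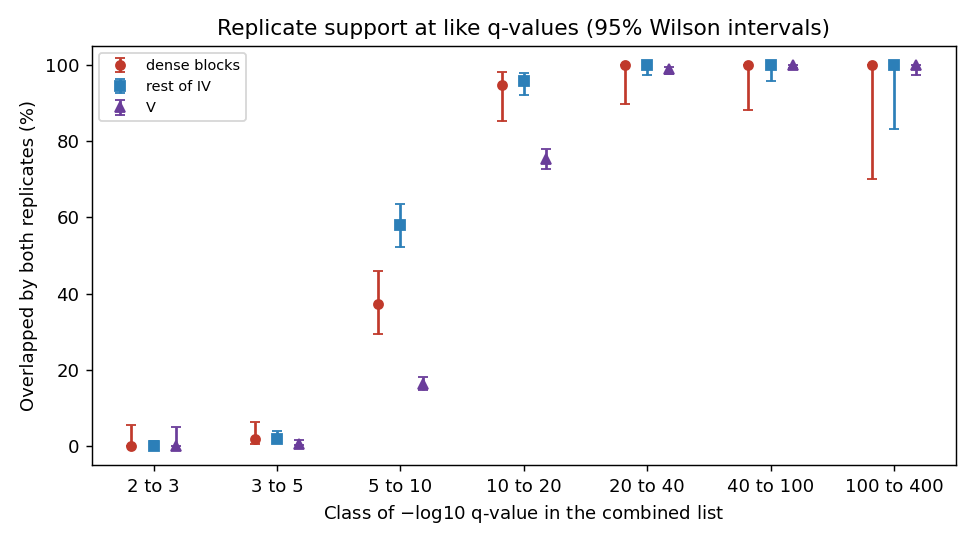
Share (%) of combined regions with peaks of both replicates in classes of -log10 q-value, for the dense blocks, the rest of IV and V, with 95% Wilson intervals that cover counting error only. From 5 to 10 the shares are 37.3% in the dense blocks, against 58.0% in the rest of IV and 16.2% on V.

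The support classes of the members also differed in width. Members overlapped by both replicates had a median width of 535 bp (interquartile range 378 to 822 bp), those of replicate 1 only 233 bp, those of replicate 2 only 214.5 bp and those of neither 135 bp (68.0 to 224 bp). In the rest of IV the medians were 576.5 bp for both, 373 bp for replicate 1 only, 324 bp for replicate 2 only and 286.5 bp for neither. The strongest member found by neither list had a combined q-value of 2.25e-08. Most replicated members matched 1 peak in each list, in 163 of 186 cases, while 23 held several peaks of at least 1 list. Regions with several peaks were less frequent in the rest of IV, at 34 of 602, while 568 matched 1 peak in each list.

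Among the 186 replicated members the q-values of both lists ranked similarly, with a Spearman correlation of 0.837, against 0.875 over the 602 in the rest of IV. Both are descriptions across regions. Replicate 2 gave the smaller q-value for 72 of the 186 members (38.7%), against 37.0% in the rest of IV.

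Nearly all replicate peaks of the stretch had a counterpart in the combined list. In replicate 1, 7 of 270 peaks had none, and in replicate 2, 12 of 284. Over all chromosomes 321 of 7583 peaks of replicate 1 and 335 of 7109 of replicate 2 had none. In the rest of IV 11 of 788 and 16 of 767 had none. None of the unmatched peaks of the stretch overlapped a peak of the other replicate. They were at most 215 bp wide in replicate 1 and 628 bp in replicate 2.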

How the data were processed

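Chromatin was crosslinked with 2% formaldehyde, sonicated and precipitated with antibodies against GFP, per the labels' protocols. Peaks were called with PeakSeq on WormBase WS220, per the file headers and columns. The authors deposited a q-value for each peak, and no read counts, so depth is unknown. The aligner, the control reads and how the combined list was made were not given in the sources used here.

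Regions were assigned by midpoint, and shared peaks overlap by at least 1 bp. Windows of 50 kb cover 17.5 Mb of IV. A block is a run of windows with at least 2 times the median count of IV outside the stretch, single windows below it bridged. Named regions are the 5 with the best mean rank over both replicates in each part, the widest, those at the edges and the 3 longest empty stretches. The members, rules and limits were chosen with earlier results of these data known. No test was made: the members were chosen by density and there are 2 ChIP samples. The block finding and overlap count were tested on simulated data. Python 3.11.15, NumPy 2.4.6, pandas 2.3.3, SciPy 1.17.1 and Matplotlib 3.10.9 were used. Alternatives covered the list, q-value, width, overlap, merging and window rules.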

Additional observations from a re-analysis of the deposited data

How the results depend on the processing

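Of 45 alternatives to 8 results, 19 were classed as unchanged and 26 as moved, with a tolerance that differed between results. The end of the right block counted as unchanged at IV 15195686 against 14697105. Its start counted as moved at IV 12927085 against 12950710. No alternative crossed a ratio of 1 for the dense blocks. Their density ratio to the rest of IV, 5.06, was 4.40 for regions overlapped by both replicates, 4.66 for the strongest 50% of the list, 3.54 for regions of 500 bp or more, 3.08 with regions closer than 1000 bp merged, 6.33 against IV outside 11.95 to 15.2 Mb, and 4.89 to 5.34 with either replicate list alone. The ratio of the gap, 0.822, was 0.709, 0.680 and 0.350 for the first 3 of these, 0.695 to 0.767 with either replicate alone and 1.03 against IV outside 11.95 to 15.2 Mb, so that its direction relative to 1 turned on the stretch compared. The comparison with IV outside 11.95 to 15.2 Mb and the values for the dense blocks alone were chosen after seeing the data.

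With 25-kb windows the median count was so low that 2 regions made a window dense, and the left block ran from IV 11433571 to 12725041 and the right block from IV 12927085. With windows shifted by 25 kb the right block ran from IV 12927085 to 13573493. With 3 times the median it ended at IV 13575157. From single replicate lists the left block started between IV 11808810 and 11913711 and ended between 12471136 and 12549259, and the right block started between 12984531 and 13008364 and ended between 13927450 and 14677370. The share of members overlapped by both replicates was 27.5% with centres within 100 bp and 91.2% in the strongest 50% of the list. Their median width, 294 bp, was 535 bp for replicated members and 302.5 to 342 bp in single replicate lists. No paired analysis was possible because the results come from no test. Depth limits are unknown without read counts.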
